A study of Mus musculus with 9 samples.

Results

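Ly6 (lymphocyte antigen 6) genes encode small cysteine-rich proteins, most of them held on the cell surface by a glycosylphosphatidylinositol (GPI) anchor. The 4 genes described here are Ly6a, Ly6c1, Ly6c2 and Ly6e of mouse chromosome 15. They were taken by symbol from the 55401 genes of the deposited count tables, and the set was chosen by the measured counts of Ly6a and Ly6c1, which swing across the libraries. The levels of those 2 genes are therefore given as a description, with no test. The measurements are RNA, and no surface protein was measured.

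The RNA is polyA RNA of NP53, a mouse tumour cell line labelled as diffuse midline glioma (DMG) and grown in DMEM with fetal bovine serum. G1C7 and G2C9 are derivatives of NP53 labelled as TIM-3 knockouts, and the parent line, under the name Gcontrol, is the control. Each of the 3 groups has 3 libraries, and all share the line and the medium. Each group is a single derivative or line, so an effect of the genotype and a difference between derivatives cannot be told apart. Whether the libraries of a group were separate cultures is not given in the labels, and the p-values below cover the spread from library to library, which may be technical.

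Ly6a encodes Sca-1, which in mice is used to sort haematopoietic stem and progenitor cells and is also found on endothelial and mesenchymal cells. Ly6c1 and Ly6c2 encode near-identical proteins that antibodies to Ly6C recognise on monocytes, some T cells and endothelium. Ly6e is expressed in many tissues, takes part in syncytin-A-mediated cell fusion in the mouse placenta and restricts entry of coronaviruses. Interferons are known to raise the RNA of several genes of this family, Ly6a and Ly6e among them.

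Libraries held between 50110129 and 56035382 reads in genes, so the CPM used below (counts scaled to library size with TMM factors) rest on similar depths. Both mates of a pair were counted, and 6 reads (3 pairs) is the floor used for a count of 0, equal to between 0.107 and 0.120 CPM in 1 library; floors and intervals cover counting error only. Havcr2, the gene of TIM-3, had 55, 6 and 66 reads in G1C7 and 39, 30 and 28 in G2C9, against 74, 58 and 60 in Gcontrol, so its transcript was still read under both knockout labels. Its log2 fold changes of -0.58 ± 0.64 (adjusted p = 0.586, edgeR) for G1C7 and -0.85 ± 0.64 (adjusted p = 0.448) for G2C9 did not pass the test with all 9 libraries. Without G1C7 replicate 2, the library with 6 reads, the value was -0.06 (adjusted p = 0.899) for G1C7, and that of -0.85 for G2C9 passed (adjusted p = 0.0323). Within the derivatives, G1C7 replicate 2 and G2C9 replicate 3 were unlike their sister libraries. The chi-square per degree of freedom was 137 and 142 between G1C7 replicate 2 and replicates 1 and 3, against 4.10 between those 2. It was 88.8 and 85.2 between G2C9 replicate 3 and replicates 1 and 2, against 5.23 between those 2, and 2.35 to 6.84 within Gcontrol. Results on the members and the gene lists are given with and without them. Of the oligodendrocyte lineage markers, Olig1 and Olig2 had 0 reads in all 9 libraries and Sox10 at most 2, while the progenitor factor Sox2 had 1172 to 3933 reads and the intermediate filament gene Nes 4612 to 8458. Pdgfra and Cspg4, which also mark oligodendrocyte precursors, were read in every library, at 238 to 541 CPM and 0.910 to 47.7 CPM.

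Ly6a differed widely between libraries of the same derivative. Its counts were 409, 6191 and 360 reads in G1C7 and 236, 278 and 1824 in G2C9, against 3046, 3131 and 2969 in Gcontrol. As CPM these are 7.65, 113 and 6.58 in G1C7 and 4.67, 5.67 and 35.6 in G2C9, against 56.3, 57.8 and 52.4 in Gcontrol. G1C7 replicate 2 lay above every Gcontrol library and its sister libraries far below them, so G1C7 and Gcontrol overlap. All G2C9 libraries lay below all Gcontrol libraries, replicate 3 by much less than the other 2. On the log2 scale, G1C7 replicates 1, 2 and 3 stood at -2.86, 1.02 and -3.08 from the Gcontrol mean, and G2C9 replicates 1, 2 and 3 at -3.57, -3.29 and -0.64.

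**Figure D1:**
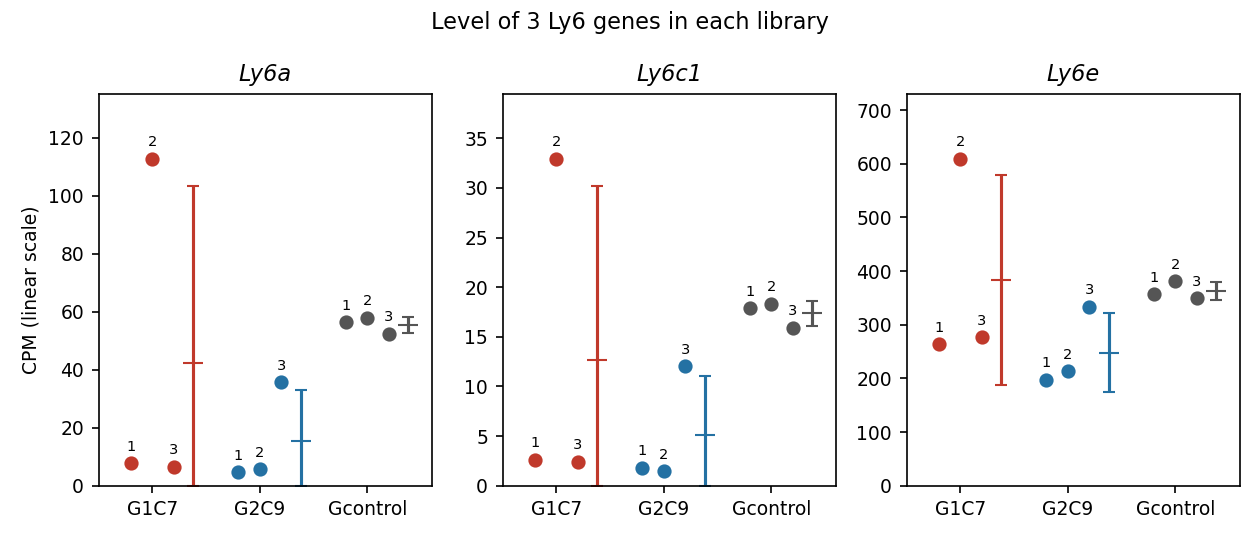
CPM on linear axes of Ly6a, Ly6c1 and Ly6e in the G1C7, G2C9 and Gcontrol libraries, with replicate numbers beside the points. Short horizontal lines are means and bars are the SD of n = 3 libraries, drawn down to 0 where the SD exceeds the mean; G1C7 replicate 2 is the highest library for each gene and G2C9 replicate 3 the highest of its group.

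The group means of Ly6a describe few of the single libraries. They were 42.3 ± 61.0 CPM in G1C7 and 15.3 ± 17.6 CPM in G2C9, against 55.5 ± 2.82 CPM in Gcontrol (SD, n = 3 each). The mean of G1C7 was 0.762 times that of Gcontrol, 0.128 times without G1C7 replicate 2, 1.07 times without replicate 1 and 1.08 times without replicate 3. The mean of G2C9 was 0.276 times that of Gcontrol and 0.0932 times without G2C9 replicate 3. Between the derivatives, G1C7 stood at 2.76 times G2C9, but at 0.464 times without G1C7 replicate 2, at 8.18 times without G2C9 replicate 3 and at 1.37 times without both. Among the 3 group means, neighbours in the order Gcontrol, G1C7, G2C9 differ by less than the SD of G1C7.

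Ly6c1 went through the same swing at a lower level. It had 139, 1808 and 133 reads in G1C7 and 91, 70 and 615 in G2C9, against 966, 991 and 903 in Gcontrol. As CPM these are 2.6, 32.9 and 2.43 in G1C7 and 1.80, 1.43 and 12 in G2C9, against 17.9, 18.3 and 15.9 in Gcontrol. Again G1C7 replicate 2 was the highest library, the Gcontrol libraries came next, and G2C9 replicate 3 lay between them and the remaining 4 derivative libraries. Means were 12.7 ± 17.6 CPM in G1C7 and 5.08 ± 6.0 CPM in G2C9, against 17.4 ± 1.26 CPM in Gcontrol (SD, n = 3 each). The ratio to Gcontrol was 0.729 for G1C7 and 0.145 without G1C7 replicate 2. For G2C9 it was 0.293, and 0.0930 without G2C9 replicate 3. G1C7 stood at 2.49 times G2C9, at 0.495 times without G1C7 replicate 2, at 7.83 times without G2C9 replicate 3 and at 1.56 times without both.

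The highest Ly6a library stood 24.1-fold above the lowest, and for Ly6c1 the factor was 23.0. On log2(CPM + 0.5), the range of Ly6a was 4.45 and that of Ly6c1 4.12. A range at least that large was found in 51 and 64 of 11202 protein-coding genes with a mean of 1 CPM or more, whose median range was 0.74. Both genes were picked for this property.

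Ly6a and Ly6c1 kept nearly one ratio in high and low libraries alike. There were 2.94, 3.42 and 2.71 Ly6a reads per Ly6c1 read in G1C7 and 2.59, 3.97 and 2.97 in G2C9, against 3.15, 3.16 and 3.29 in Gcontrol. The 95% Wilson interval was 1.83 to 3.6 at the lowest ratio, in G2C9 replicate 1. At the highest ratio, in G2C9 replicate 2, it was 2.75 to 5.74. Because mates are counted singly, these intervals used counts divided by 2, as read pairs, and cover counting error only. Per length, as reads per kilobase, Ly6a stood at 3.61 to 5.53 times Ly6c1. The ratio thus moved by far less than either gene.

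**Figure D2:**
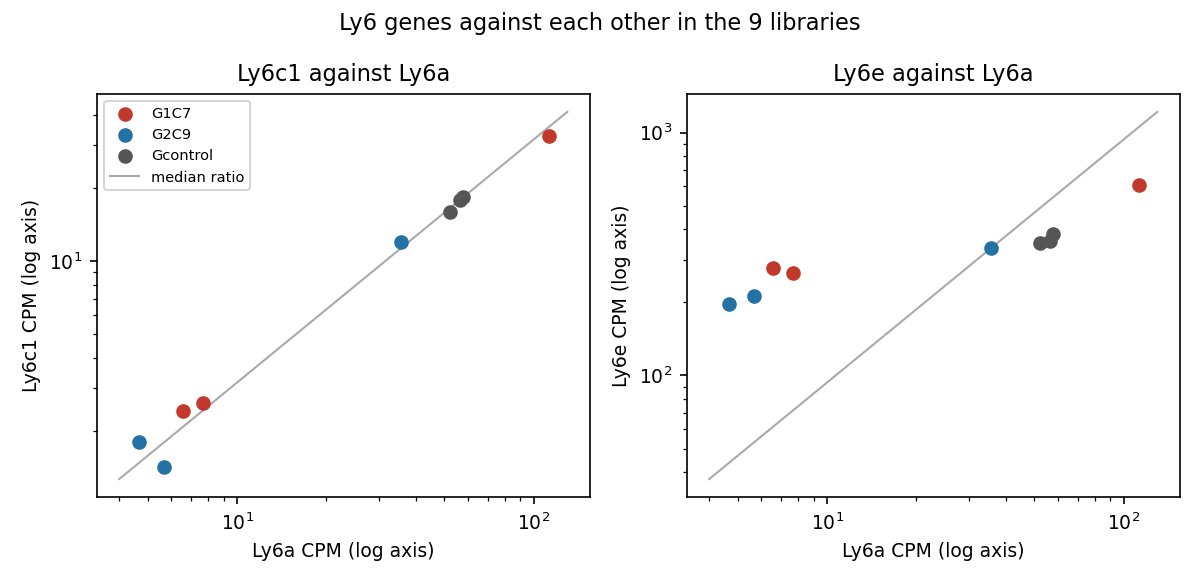
CPM of Ly6c1 (left) and Ly6e (right) against CPM of Ly6a in each library, on log axes, for G1C7, G2C9 and Gcontrol; the grey line marks the median ratio of the 9 libraries. Ly6c1 points follow the line from the 4 low derivative libraries to G1C7 replicate 2, while Ly6e points lie above it in the low libraries and below it in the high ones.

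Read sharing between these near-copies was small for Ly6a. Of the distinct 100-base words of the annotated transcripts, 1.45% for Ly6a (19 of 1311) were also found in Ly6c1. For Ly6c1, 10.1% were found in Ly6c2 or Ly6a, for Ly6c2 5.81% in Ly6c1, and for Ly6e none of 4559. Reads aligned to several positions were dropped by the counting, so Ly6c1 and Ly6c2 counts may be somewhat low. That loss was not measured, and a mate in a shared word may be placed by its partner. Reads that cross a mismatch could still be assigned to the wrong copy.

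Ly6c2 was at the floor of detection. It had 0, 3 and 0 reads in G1C7 and 0 in each of the 3 G2C9 libraries, against 2, 0 and 2 in Gcontrol. No group exceeded the floor of 6 reads, no fold is given, and the gene was left out of the tests by the filter on low counts. Its absence beside Ly6c1 concerns genes of one gene pair: Ly6c1 (GRCm38 chr15, 75044018 to 75048830, minus strand) and Ly6c2 (75108158 to 75111970, minus strand).

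The promoters of this pair are shown because one of the 2 genes was read and the other was not. The RefSeq promoter table (GRCm38.p6) held 2 of the 4 members, Ly6c1 and Ly6c2; Ly6a and Ly6e had no entry. The 250 bases before the RefSeq start are printed 5′ to 3′ on the minus strand, at chr15:75048838-75049087 for Ly6c1 and chr15:75111972-75112221 for Ly6c2, with capitals marking runs of at least 12 identical bases in their alignment.
Ly6c1: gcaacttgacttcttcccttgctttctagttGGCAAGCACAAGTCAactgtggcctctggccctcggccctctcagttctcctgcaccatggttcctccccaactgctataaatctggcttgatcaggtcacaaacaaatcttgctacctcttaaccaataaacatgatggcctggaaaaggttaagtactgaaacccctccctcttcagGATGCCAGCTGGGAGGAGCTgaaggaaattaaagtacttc
Ly6c2: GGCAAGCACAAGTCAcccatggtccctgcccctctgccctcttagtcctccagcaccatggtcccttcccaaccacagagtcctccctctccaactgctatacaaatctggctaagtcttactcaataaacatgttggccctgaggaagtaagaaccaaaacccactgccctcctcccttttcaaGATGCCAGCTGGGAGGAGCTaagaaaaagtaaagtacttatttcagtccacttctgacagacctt
Of 216 aligned positions, 164 (75.9%) were identical, and the 2 runs in capitals hold 35 bases. Searched on both strands, neither window held the interferon-stimulated response element core (GAAANNGAA), the gamma-activated site (TTCNNNGAA) or the NF-kB motif. Those motifs were found in 7.12%, 7.01% and 3.9% of the 32817 promoters of the table, over the same 250 bases.

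Ly6e was the most abundant of the 4 and moved in nearly the same order of libraries with a far smaller amplitude. It had 14073, 33442 and 15139 reads in G1C7 and 9963, 10454 and 17078 in G2C9, against 19314, 20622 and 19822 in Gcontrol. As CPM these are 263, 609 and 277 in G1C7 and 197, 213 and 333 in G2C9, against 357, 381 and 350 in Gcontrol. G1C7 straddles the Gcontrol libraries and all G2C9 libraries lie below them, as for Ly6a. The highest library stood 3.09-fold above the lowest, and 1296 of the 11202 protein-coding genes had a range at least as large.

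No difference of Ly6e passed the test in any comparison with all 9 libraries in the fit. Means were 383 ± 196 CPM in G1C7 and 248 ± 74.4 CPM in G2C9, against 363 ± 16.4 CPM in Gcontrol (SD, n = 3 each). The log2 fold change was 0.08 ± 0.33 (adjusted p = 0.894) for G1C7 and -0.55 ± 0.33 (adjusted p = 0.329) for G2C9, and 0.63 ± 0.33 for G1C7 against G2C9 (adjusted p = 0.444), by edgeR's quasi-likelihood test with Benjamini-Hochberg adjustment over 15659 genes. Without G1C7 replicate 2 the value in G1C7 was -0.42 (adjusted p = 0.161). Without G1C7 replicate 2 and G2C9 replicate 3 together, Ly6e was lower in both derivatives, at -0.42 ± 0.05 (adjusted p = 6.32e-07) for G1C7 and -0.82 ± 0.05 (adjusted p = 1.84e-10) for G2C9, and G1C7 stood above G2C9 by 0.40 ± 0.05 (adjusted p = 1.24e-05). In that fit 54.3%, 53.0% and 27.3% of all genes tested were called in the same 3 comparisons, and the libraries were left out because they were known to stand apart, so these calls are not independent of that choice.

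Per length the members kept one order in every library: Ly6e above Ly6a, Ly6a above Ly6c1, and Ly6c2 at the floor. In RPKM (CPM per kilobase of annotated exon), Ly6e averaged 101 ± 51.8 in G1C7 and 65.6 ± 19.7 in G2C9, against 95.8 ± 4.33 in Gcontrol. Ly6a averaged 35.1 ± 50.6 in G1C7 and 12.7 ± 14.6 in G2C9, against 46.1 ± 2.34 in Gcontrol. Ly6c1 averaged 7.54 ± 10.5 in G1C7 and 3.03 ± 3.58 in G2C9, against 10.4 ± 0.754 in Gcontrol (SD, n = 3 each). The distance between Ly6e and Ly6a depended on the library: Ly6e stood at 1.72 times Ly6a per length in G1C7 replicate 2 and at 13.4 times in G2C9 replicate 1, with the Gcontrol libraries at 2.02 to 2.13 times.

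The wider family on chromosome 15 was mostly silent. Of 21 listed genes, 19 were found in the files and 9 had 0 reads in all libraries: Gml, Gml2, Gpihbp1, Ly6d, Ly6f, Ly6g, Ly6h, Ly6k and Ly6l. Gpihbp1 carries lipoprotein lipase on capillary endothelium, and Ly6g marks mouse neutrophils. Another 5, besides Ly6c2, had reads near the floor: Ly6i, Psca, Lypd2, Slurp2 and Slurp1. Ly6i, which lies between Ly6e and Ly6a, had 2, 20 and 0 reads in G1C7 and 4, 0 and 2 in G2C9, against 4, 6 and 4 in Gcontrol. Its highest library was that of its neighbours, G1C7 replicate 2, at counts too low to order the others. Psca had 18 reads over all 9 libraries, Lypd2 9 and Slurp2 8.

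**Figure D3:**
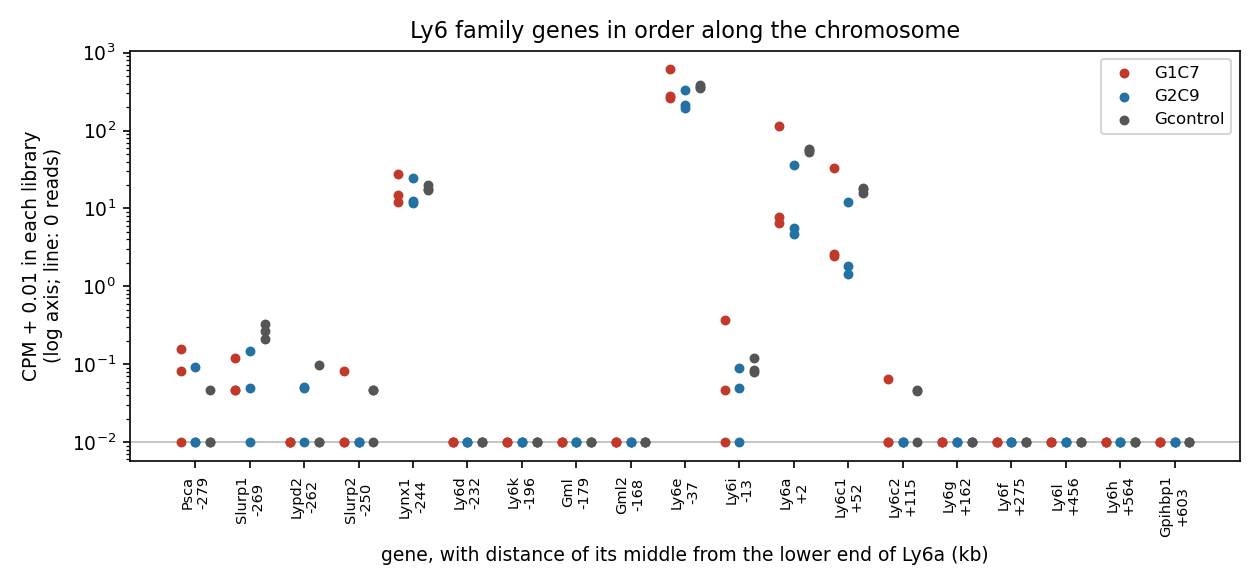
CPM + 0.01 on a log axis in each library of G1C7, G2C9 and Gcontrol for the 19 Ly6 family genes found on chromosome 15, in chromosomal order, with the distance of each gene's middle from the lower end of Ly6a in kb. Ly6e, Ly6a, Ly6c1 and Lynx1 stand above 1 CPM in every library, Ly6c1 at 1.43 CPM in G2C9 replicate 2. Points on the grey line are libraries with 0 reads.

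Besides the members, Lynx1 and Slurp1 passed the filter, and Slurp1 did so through Gcontrol alone. Lynx1, which encodes a GPI-anchored modulator of nicotinic acetylcholine receptors, had 12.1, 28.0 and 15.1 CPM in G1C7 and 11.6, 12.5 and 24.8 CPM in G2C9, against 17.7, 17.2 and 20.0 CPM in Gcontrol. Its 2 high libraries were again G1C7 replicate 2 and G2C9 replicate 3, both above Gcontrol, where for Ly6a only the first was. The log2 fold changes were 0.01 ± 0.36 (adjusted p = 0.990) for G1C7 and -0.17 ± 0.36 (adjusted p = 0.824) for G2C9. Without those 2 libraries they were -0.43 ± 0.09 (adjusted p = 0.000868) and -0.60 ± 0.10 (adjusted p = 4.48e-05). Slurp1, which encodes a secreted member of the family, had 2, 2 and 6 reads in G1C7 and 2, 0 and 7 in G2C9, against 14, 11 and 18 in Gcontrol. Because it reached the filter in Gcontrol libraries alone, it is given as reads, with no test. Slurp1 overlaps a gene on the other strand, and strand was not used in counting.

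With Ly6a, Ly6c1 and Slurp1 set aside, neither of the 2 tested family genes (Ly6e and Lynx1) was called in G1C7, where 17.5% of all genes tested were called (8.77% higher and 8.73% lower). Neither was called in G2C9, where 13.5% were (6.25% higher and 7.22% lower), or in G1C7 against G2C9, where 3.36% were (1.71% higher and 1.65% lower). At an unadjusted p under 0.05 the edgeR count was 0 of 2 in each comparison, and DESeq2 and limma-voom called 0 in each. Without both libraries that stood apart, the counts were 2, 2 and 1 of 2, beside 54.3%, 53.0% and 27.3% of all genes tested.

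The median gene around the cluster was slightly lower in both derivatives. The 4 members span 156.92 kb, Ly6e at 74955051 to 74959905 on the plus strand and Ly6a at 74994877 to 74998031 on the minus strand. Of 148 tested genes within 5 Mb, 2 were called higher and 14 lower in G1C7, and 1 higher and 21 lower in G2C9. The share called lower was 9.46% in G1C7, near the 8.73% over all genes, and 14.2% in G2C9, beside 7.22%. The share called in either direction was 10.8% in G1C7 and 14.9% in G2C9, beside 17.5% and 13.5%. Their median log2 fold change was -0.19 in G1C7 and -0.21 in G2C9, beside 0.02 and 0.01 over all genes tested. In G1C7 against G2C9, 5 were called higher and 0 lower, with a median of 0.04 beside 0.01. The medians without both libraries that stood apart were -0.23 in G1C7 and -0.28 in G2C9, beside -0.01 over all genes in each. In the narrower window of 1 Mb, 27 genes were tested with all libraries. Of these, 1 was called higher and 7 lower in G1C7, and 0 higher and 6 lower in G2C9. The share called lower there was 25.9% in G1C7 and 22.2% in G2C9, above the shares over all genes. The medians there were -0.26 in G1C7 and -0.25 in G2C9.

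On other chromosomes, the 2 family members named here, Lypd6 and Plaur, lacked the swing of Ly6a. Of 19 listed, 5 were tested and 1, Lypd6, was called, lower in each derivative. The list median was -1.31 in G1C7 and -0.36 in G2C9, beside 0.02 and 0.01 over all genes. Other tested genes of this list are not described by library, so whether they swing is not given here. Lypd6, which encodes a GPI-anchored modulator of Wnt signalling, had 105, 122 and 106 reads in G1C7 and 60, 72 and 70 in G2C9, against 256, 296 and 282 in Gcontrol. Neither derivative overlaps Gcontrol, and neither library that stood apart is out of line. The log2 fold change was -1.31 ± 0.18 (adjusted p = 0.00191) for G1C7 and -1.91 ± 0.18 (adjusted p = 0.000483) for G2C9, with levels of 2.04 ± 0.157 CPM in G1C7 and 1.34 ± 0.142 CPM in G2C9 against 5.06 ± 0.375 CPM in Gcontrol (SD, n = 3 each). Plaur, the urokinase receptor, had 97.3, 56.7 and 100 CPM in G1C7 and 90.6, 94.0 and 81.4 CPM in G2C9, against 116, 115 and 111 CPM in Gcontrol, and was called in no comparison. Between the derivatives no listed gene was called by edgeR, with 1 at an unadjusted p under 0.05, 1 called by DESeq2 and 0 by limma-voom. Over all genes tested, 17.5%, 13.5% and 3.36% were called in G1C7, G2C9 and between the derivatives. Without both libraries that stood apart, 0 were called higher and 4 lower in G1C7, and 0 higher and 3 lower in G2C9. Between the derivatives 1 was called higher and 0 lower, and the medians were -1.37 in G1C7 and -0.40 in G2C9. The shares over all genes in that fit were 54.3%, 53.0% and 27.3%. For Plaur, G1C7 replicate 2 and G2C9 replicate 3 were the lowest libraries of their groups, the opposite of Ly6a.

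By likeness of profile over the 9 libraries, the gene nearest to Ly6a was Ly6c1, and the gene nearest to Ly6c1 was Ly6a. Likeness was measured as the root-mean-square difference of mean-centred log2(CPM + 0.5) among protein-coding genes with a mean of 1 CPM or more, and it was 0.19 for this pair. The next 4 genes were the same for both: Itga11, a collagen-binding integrin subunit, Iglon5, a neuronal adhesion protein, Tap2, a subunit of the peptide transporter for MHC class I, and Gjb2, a gap junction protein. Their differences were 0.47, 0.48, 0.52 and 0.55 from Ly6a, and 0.45, 0.41, 0.39 and 0.46 from Ly6c1. Tap2 stood at 1.44, 12.2 and 2.21 CPM in G1C7 and 0.792, 0.735 and 4.02 CPM in G2C9, against 9.39, 8.24 and 7.81 CPM in Gcontrol. Itga11 stood at 0.935, 15.8 and 1.39 CPM in G1C7 and 1.58, 2.02 and 10.8 CPM in G2C9, against 14.1, 14.1 and 15.4 CPM in Gcontrol. Each has the low libraries of Ly6a, with G1C7 replicate 2 near or above Gcontrol. Ly6e ranked 399 and Lynx1 601 by likeness to Ly6a, with smaller amplitudes on this scale. With 2 CPM added in place of 0.5, 2 of the 5 genes were still among the 5 nearest to Ly6a, and likewise for Ly6c1.

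**Figure D4:**
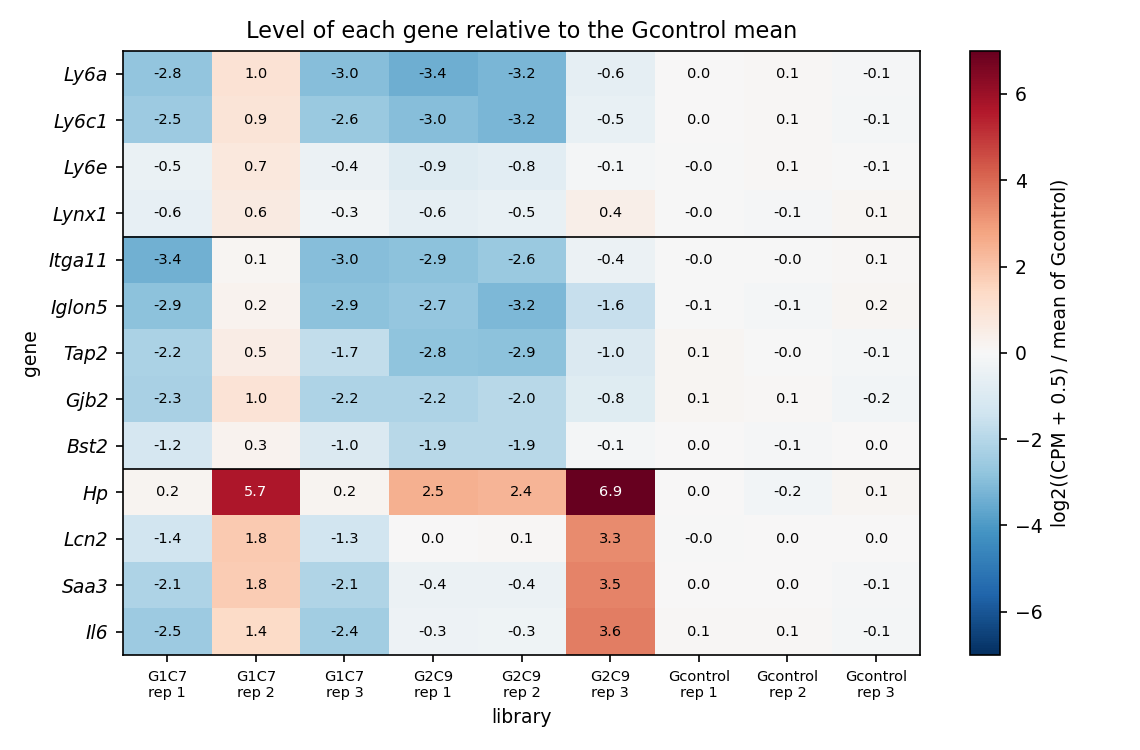
log2 of (CPM + 0.5) over its Gcontrol mean, by gene (rows) and library (columns: G1C7, G2C9, Gcontrol). Rows are chromosome 15 Ly6 genes, genes with a like profile and Bst2, and acute-phase genes with the cytokine gene Il6. Ly6a, Ly6c1 and the genes of like profile are low in 4 derivative libraries and near or above the Gcontrol mean in G1C7 replicate 2, whereas Hp, Lcn2, Saa3 and Il6 are highest in G2C9 replicate 3.

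Genes of the interferon pathway, which is known to raise Ly6a, were described beside the members. All 18 listed signalling genes were tested; 1 was called higher and 1 lower in G1C7, 0 higher and 2 lower in G2C9, and none in G1C7 against G2C9 by edgeR (2 at an unadjusted p under 0.05, 2 by DESeq2, 0 by limma-voom). The share called was 11.1% in each derivative, beside 17.5% in G1C7 and 13.5% in G2C9 over all genes tested. The list median was -0.05 in G1C7 and -0.07 in G2C9, beside 0.02 and 0.01 over all genes. By library, the median log2 distance of the list from the Gcontrol mean was -0.20, 0.10 and -0.17 in G1C7 and -0.19, -0.21 and 0.09 in G2C9, so the libraries that stood apart lay above Gcontrol and the other 4 below it. Without both, 17 were tested. Of these, 2 were called higher and 10 lower in each derivative, and 4 higher and 3 lower between them. The medians were -0.25 in G1C7 and -0.21 in G2C9. Over all genes tested in that fit, 54.3% were called in G1C7, 53.0% in G2C9 and 27.3% between the derivatives. Ifngr1, a chain of the interferon-gamma receptor, rose by 0.43 ± 0.08 in G1C7 (adjusted p = 0.0101). Irf1, an interferon-induced transcription factor, fell by 0.86 ± 0.18 in G2C9 (adjusted p = 0.0142).

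Other genes known to respond to interferon are given as values and were chosen after their levels were seen. Irf7, an interferon regulatory factor, stood at 0.243, 1.78 and 0.292 CPM in G1C7 and 0.238, 0.245 and 2.19 CPM in G2C9, against 2.92, 2.59 and 2.72 CPM in Gcontrol. Bst2, a GPI-anchored protein that tethers budding virus, stood at 5.26, 14.8 and 5.86 CPM in G1C7 and 2.89, 2.82 and 11.2 CPM in G2C9, against 12.4, 11.8 and 12.7 CPM in Gcontrol. Both had the same 4 low libraries as Ly6a. Irf1 lacked this pattern, since G2C9 replicate 3 was low beside Gcontrol along with its sister libraries. Its CPM were 43.7, 70.4 and 46.1 in G1C7 and 31.7, 35.6 and 39.6 in G2C9, against 65.3, 64.9 and 64.6 in Gcontrol. Bst2 ranked 54 by likeness to Ly6a.

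Acute-phase genes marked the same 2 libraries but in another order. Of 9 listed genes, all tested, none was called in any comparison by edgeR, DESeq2 or limma-voom, with 1, 1 and 0 at an unadjusted edgeR p under 0.05 in G1C7, G2C9 and G1C7 against G2C9. The list median was 0.36 in G1C7 and 0.88 in G2C9, beside 0.02 and 0.01 over all genes, and rested on 1 library in each. By library it was -0.32, 1.36 and -0.38 from the Gcontrol mean in G1C7 and 0.05, -0.0069 and 1.48 in G2C9. Without both libraries that stood apart, 0 were called higher and 7 lower in G1C7, and 2 higher and 3 lower in G2C9. Between the derivatives 0 were called higher and 7 lower, and the medians were -0.35 in G1C7 and 0.02 in G2C9. Over all genes tested in that fit, 54.3%, 53.0% and 27.3% were called in the same comparisons. With all libraries those shares were 17.5%, 13.5% and 3.36%. Haptoglobin (Hp) stood at 4.08, 205 and 4.05 CPM in G1C7 and 21.5, 20.3 and 493 CPM in G2C9, against 3.62, 2.99 and 3.86 CPM in Gcontrol. Ly6a was above Gcontrol in G1C7 replicate 2 and below it in G2C9 replicate 3, whereas Hp was above it in both and highest in the second. C3, the most abundant of the list, averaged 704 ± 447 CPM in G1C7 and 1049 ± 468 CPM in G2C9, against 568 ± 42.2 CPM in Gcontrol (SD, n = 3 each). Its log2 fold change in G1C7 was 0.31 ± 0.43 (adjusted p = 0.668), but -0.35 ± 0.05 once both libraries were left out (adjusted p = 1.66e-05). For G2C9 the values were 0.88 ± 0.43 (adjusted p = 0.222) with all libraries and 0.46 ± 0.05 without both (adjusted p = 6.28e-07).

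The machinery that adds the GPI anchor was expressed in every library. Of 27 tested genes of its synthesis, 3 were called higher and 3 lower in G1C7, 0 higher and 1 lower in G2C9, and 0 higher and 1 lower in G1C7 against G2C9. The share called was 22.2% in G1C7, 3.70% in G2C9 and 3.70% between the derivatives, beside 17.5%, 13.5% and 3.36% over all genes. The medians were -0.14 in G1C7 and -0.04 in G2C9, beside 0.02 and 0.01 over all genes. Without both libraries that stood apart, 5 were called higher and 11 lower in G1C7, and 4 higher and 10 lower in G2C9. Between the derivatives 4 were called each way, and the medians were -0.12 in G1C7 and -0.06 in G2C9. In that fit 54.3%, 53.0% and 27.3% of all genes were called in the same comparisons. Summed over the list, the level was 736 to 756 CPM in G1C7 and 749 to 755 CPM in G2C9, against 766 to 778 CPM in Gcontrol. A sum can hide opposite changes of single genes. Pigf, which acts in the ethanolamine phosphate step, rose by 0.74 ± 0.12 (log2) in G1C7 (adjusted p = 0.00367). Pigk, the catalytic subunit of the transamidase that attaches the anchor, fell by 0.55 ± 0.08 in G1C7 (adjusted p = 0.00270) and was 0.64 ± 0.08 lower in G1C7 than in G2C9 (adjusted p = 0.00452). Pigv, a mannosyltransferase, fell by 0.77 ± 0.20 (adjusted p = 0.0301) in G1C7 and by 0.87 ± 0.20 (adjusted p = 0.0216) in G2C9.

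Other GPI-anchored surface proteins moved in both directions. With Ntm set aside, 21 were tested; 4 were called higher and 1 lower in G1C7, 5 higher and 0 lower in G2C9, and 3 higher and 0 lower in G1C7 against G2C9. The share called was 23.8% in each derivative and 14.3% between them, beside 17.5%, 13.5% and 3.36% over all genes in G1C7, G2C9 and between them. The medians were 0.50 in G1C7 and 0.22 in G2C9, beside 0.02 and 0.01 over all genes. By library, the median distance from the Gcontrol mean was 0.19, 0.54 and 0.24 in G1C7 and -0.20, -0.19 and 0.50 in G2C9, so the sign in G2C9 rested on replicate 3. Without both libraries that stood apart, 9 were called higher and 5 lower in G1C7, and 7 higher and 11 lower in G2C9. Between the derivatives 10 were called higher and 4 lower, and the medians were 0.28 in G1C7 and -0.20 in G2C9. Over all genes in that fit, 54.3%, 53.0% and 27.3% were called in the same comparisons. Sema7a, a semaphorin, rose to 142 ± 33.3 CPM in G1C7 and 124 ± 1.02 CPM in G2C9, against 63.1 ± 2.16 CPM in Gcontrol, a log2 fold change of 1.17 ± 0.16 (adjusted p = 0.00192) and 0.97 ± 0.16 (adjusted p = 0.00507). Gfra2, a co-receptor for neurturin, rose by 1.09 ± 0.07 (adjusted p = 0.000103) in G1C7 and by 0.52 ± 0.07 (adjusted p = 0.00291) in G2C9. Negr1, a neuronal adhesion protein, rose by 1.34 ± 0.27 in G2C9 (adjusted p = 0.0133). Cd24a, which encodes the heat-stable antigen, was lower than Gcontrol in every derivative library and shared the pattern of Ly6a only within each derivative. It stood at 0.711, 7.76 and 1.33 CPM in G1C7 and 3.96, 4.14 and 24.0 CPM in G2C9, against 34.4, 38.6 and 33.1 CPM in Gcontrol. All derivative libraries lay below all Gcontrol libraries, with G1C7 replicate 2 and G2C9 replicate 3 the highest of their groups. G2C9 replicate 3 lay above G1C7 replicate 2, the reverse of Ly6a. Its change of -3.43 ± 0.99 in G1C7 passed (adjusted p = 0.0452), and that of -1.72 ± 0.92 in G2C9 did not (adjusted p = 0.27). Without both libraries they were -5.10 ± 0.15 (adjusted p = 1.29e-13) and -3.12 ± 0.12 (adjusted p = 4.34e-12). Ntm, an adhesion protein that reached the filter in Gcontrol libraries alone and is given with no test, had 0, 0 and 1 reads in G1C7 and 0, 2 and 0 in G2C9, under the floor, against 14, 14 and 24 in Gcontrol.

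Sca-1 is sorted together with other surface proteins on progenitor cells, and 12 such genes were listed. Of these, 9 were tested; 1 was called higher in G1C7, 3 higher and 1 lower in G2C9, and none in G1C7 against G2C9 by edgeR (4 at an unadjusted p under 0.05, 2 by DESeq2, 0 by limma-voom). The list median was 0.22 in G1C7 and 0.17 in G2C9, beside 0.02 and 0.01 over all genes. The share called was 11.1% in G1C7 and 44.4% in G2C9, beside 17.5% and 13.5% over all genes tested. Without both libraries that stood apart, 6 were called higher and 1 lower in G1C7, and 5 higher and 3 lower in G2C9. Between the derivatives 3 were called higher and 2 lower, and the medians were 0.38 in G1C7 and 0.24 in G2C9. In that fit 54.3%, 53.0% and 27.3% of all genes were called in the same comparisons. Kit, the receptor paired with Sca-1 on haematopoietic progenitors, had 0 reads in all 9 libraries, and Prom1 had 4 reads in 1. Pdgfra, the receptor paired with Sca-1 on mesenchymal progenitors, was 385 ± 92.2 CPM in G1C7 and 448 ± 81.0 CPM in G2C9, against 248 ± 9.73 CPM in Gcontrol. It rose by 0.63 ± 0.18 (log2; adjusted p = 0.0427) in G1C7 and by 0.85 ± 0.18 (adjusted p = 0.0160) in G2C9. Cd9, a tetraspanin, rose by 0.61 ± 0.15 in G2C9 (adjusted p = 0.0297). Vcam1, an adhesion receptor, fell by 0.74 ± 0.13 in G2C9 (adjusted p = 0.00659).

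Markers of other cells that carry Ly6 proteins were read as follows; in bulk RNA, fewer cells of a type and less RNA per cell cannot be told apart. Of 8 endothelial markers, Cldn5, Emcn and Tie1 had 0 reads in all libraries. The list summed to 1.83 to 1.93 CPM in G1C7 and 4.31 to 5.02 CPM in G2C9, against 1.43 to 1.85 CPM in Gcontrol. Most of the G2C9 sum was 1 gene, Cdh5, at 3.78, 3.29 and 3.59 CPM. Cdh5 had 1.27, 0.856 and 1.24 CPM in G1C7 and 0.795, 0.776 and 0.617 CPM in Gcontrol. Of 8 myeloid markers, Adgre1 and Spi1 had 0 reads and Ptprc at most 4, with sums of 2.81 to 4.97 CPM in G1C7 and 3.12 to 4.71 CPM in G2C9, against 5.21 to 5.59 CPM in Gcontrol. Of 8 lymphoid markers, Cd3e and Ncr1 had 0 reads, and no library summed to more than 0.898 CPM. The 7 fibroblast markers summed to 2874 to 7364 CPM in G1C7 and 3427 to 7557 CPM in G2C9, against 5236 to 5508 CPM in Gcontrol, with Lum at 14 reads or fewer and Fap at 6 or fewer. Col1a1, a collagen chain and the most abundant of them, had 1424, 3522 and 1329 CPM in G1C7 and 1345, 1282 and 2560 CPM in G2C9, against 2698, 2582 and 2857 CPM in Gcontrol. Col1a1 was thus high in the same 5 libraries as Ly6a. Other markers of the list had other orders. Dcn, a matrix proteoglycan, had 296, 874 and 312 CPM in G1C7 and 902, 925 and 2573 CPM in G2C9, against 785, 836 and 744 CPM in Gcontrol. Pdgfrb, a growth factor receptor, was lowest in G1C7 replicate 2, with 324, 216 and 305 CPM in G1C7 and 328, 316 and 335 CPM in G2C9, against 241, 228 and 256 CPM in Gcontrol. The part of these markers in the result was not tested. The 10 glial and glioma markers summed to 537 to 663 CPM in G1C7 and 532 to 660 CPM in G2C9, against 455 to 498 CPM in Gcontrol. The largest part of each sum was Pdgfra, which was higher in every derivative library than in Gcontrol. Sox2 was lower in each, with 58.6, 21.3 and 53.8 CPM in G1C7 and 40.1, 40.8 and 23.2 CPM in G2C9. In Gcontrol it had 69.4, 69.8 and 69.4 CPM. Of 5 tested markers of this list, 2 were called higher and 1 lower in G1C7, and 1 each way in G2C9. The shares called over all genes tested were 17.5% and 13.5%. With both outlying libraries left out, the counts were 2 each way in G1C7 and 1 higher and 3 lower in G2C9. The shares over all genes were then 54.3% and 53.0%. Among them Cspg4, the NG2 proteoglycan, fell to 1.30 ± 0.341 CPM in G1C7 and 4.27 ± 1.04 CPM in G2C9, against 43.6 ± 4.72 CPM in Gcontrol. The log2 fold changes were -5.06 ± 0.26 (adjusted p = 3.45e-05) for G1C7 and -3.35 ± 0.24 (adjusted p = 0.000157) for G2C9.

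Of the calls named above, those of Lypd6, Sema7a, Gfra2, Pigf, Pigk, Cspg4 and Vcam1 held without each of the 9 libraries in turn, in edgeR. Leaving out Gcontrol replicate 1 ended the call of Ifngr1 (adjusted p = 0.0563), and that of Negr1 ended without Gcontrol replicate 2 or 3 (up to 0.0633). Those of Cd9 and, in G2C9, of Pdgfra ended without any 1 Gcontrol library (up to 0.119 and 0.0690). In G1C7, that of Pdgfra ended without any 1 Gcontrol library or without G2C9 replicate 1 or 2 (up to 0.141), and that of Cd24a without any 1 library except G1C7 replicate 2 and G2C9 replicate 3 (up to 0.119). The call of Pigv ended without any 1 Gcontrol library or replicate 1 or 3 of G1C7 (up to 0.106), and in G2C9 without any 1 Gcontrol library or replicate 1 or 2 of G2C9 (up to 0.0879). The same 5 libraries ended that of Irf1 in G2C9 (up to 0.0569).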

How the data were processed

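Counts of reads per gene were made by the authors with featureCounts 1.6.0 on GENCODE vM25 (GRCm38), per the file headers, after alignment with STAR 2.6.1c and quality control with FastQC 0.11.8, per the submitters' processing notes. None of the 9 headers sets an option for pairs, strand, multi-mapping or overlap, so each mate counted as a read, strand played no part, and multi-mapping reads and those in overlapping genes were left out. Libraries were stranded, paired, 100 bases per mate, per the labels' protocols. Symbols were matched for 55141 of 55401 gene IDs (260 had none); Ly6g2, Ly6m and Pigy were not found.

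All 9 libraries entered 1 edgeR 4.0.16 quasi-likelihood fit (R 4.3.3, TMM, filterByExpr, robust, 6 residual degrees of freedom) of 15659 genes, with calls at an adjusted p (Benjamini-Hochberg) under 0.05. Standard errors were taken from the fold change and its F statistic. RPKM use the annotated exon length. The procedure was tested on simulated data. Alternatives were RLE scaling, other filters, DESeq2 1.42.0, limma-voom (limma 3.58.1), a replicate block, and libraries left out.

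The members, the gene lists and the libraries to leave out were chosen with earlier results of these data known. Named genes are the members, the chromosome 15 family, up to 3 called genes with the largest change per list and comparison (or the 2 most abundant), and the 5 genes most like Ly6a and Ly6c1; not every one is printed. Listed genes that reached the filter's CPM cutoff (0.187) in libraries of 1 group alone, Slurp1 and Ntm, are given as reads and left out of list counts, a choice made after their values were seen. A result on a listed gene is not reported here.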

Additional observations from a re-analysis of the deposited data

Results flagged for a closer look

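Neither Ly6e nor Lynx1 passed the test of G1C7 against G2C9. Genes named from the other lists did, as log2 fold changes of G1C7 over G2C9 by edgeR, each called in the comparison itself. Among GPI-anchored proteins, Gfra2 differed by 0.57, Efna5 by 0.76 and Rtn4r by 1.66. Pigk of anchor synthesis differed by -0.64. Among cell markers, Cdh5 differed by -1.66, Cspg4 by -1.71 and Nes by 0.67. The call of Rtn4r ended without any of 5 libraries (adjusted p up to 0.133), and the other 6 held without each of the 9 libraries in turn.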

How the results depend on the processing

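Ly6e and the chromosome 15 family count were tallied apart from the other results. Across 558 refits of the other 35 single-gene results, 476 kept both direction and side of the threshold. Of the rest, 68 lost it, 1 gained it and 13, all of Lynx1, turned sign. For Ly6e, 3 refits turned sign, all in G1C7, and 2 others gained a call. Of 528 refits of 33 list counts, 102 moved by over 1.5 times. The cause was not tested. With 1 library left out, calls ran from 2 (any 1 Gcontrol library, or G1C7 replicate 1) to 10 (G1C7 replicate 2) for GPI synthesis in G1C7, from 1 (Gcontrol replicate 1) to 7 (G1C7 replicate 2) for interferon signalling in G1C7, and from 1 (any 1 Gcontrol library) to 6 (G1C7 replicate 2) for the progenitor panel in G2C9. Correlations of same-numbered libraries, as deviations from their group means, ran from -0.56 to 0.41. G1C7 replicate 2 and G2C9 replicate 3, which stood apart under different numbers, correlated at 0.68. These values therefore cannot show whether replicate numbers pair samples. With the replicate block, 1532, 1114 and 164 genes were called in G1C7, G2C9 and G1C7 against G2C9, where the fit without it called 2740, 2109 and 526; DESeq2 called 3190 in G2C9 and 1267 between derivatives. Leaving out each library in turn gave 1181 to 4133, 878 to 4113 and 186 to 1286 calls, and 0 of Ly6e and Lynx1 in each comparison. Without G1C7 replicate 2 and G2C9 replicate 3, 8581, 8383 and 4320 genes were called, with 2, 2 and 1 of those 2.

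In G1C7, Ly6e was at -0.034 by limma-voom, -0.42 without both libraries and -0.42 to 0.28 with each left out. In G2C9 it was at -0.82 without both and -0.81 to -0.41 with each left out, and between derivatives at 0.40 and 0.13 to 0.89. Lynx1 in G1C7, at 0.01, was at -0.0045 with RLE, -0.0059 with the filter at a mean of 1 CPM, -0.0046 by DESeq2, -0.082 by limma-voom, -0.037 with the replicate block, -0.43 without both libraries and -0.43 to 0.23 with each left out. In G2C9 it ran from -0.60 to 0.024, and between derivatives from -0.26 to 0.60.

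The log2 ratio of group means, which has no test, was -2.96 for Ly6a and -2.79 for Ly6c1 in G1C7 without both libraries. With each left out it ran from -2.96 to 0.12 and from -2.79 to 0.033 in G1C7, and between derivatives from -1.11 to 3.03 and from -1.01 to 2.97. Depth limits Ly6c2, Ly6i and Slurp1, which had at most 3, 20 and 18 reads in a library.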
